A study of Homo sapiens with 10 samples.

Results

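Krüppel-like factors (KLFs) are transcription factors that share a run of zinc fingers and bind GC-rich and CACCC sequences. The transcripts of 10 KLF genes, KLF2, KLF3, KLF4, KLF5, KLF6, KLF7, KLF9, KLF10, KLF11 and KLF13, were followed over the 10 RNA-seq libraries of the study. They were chosen from the 18 KLF genes among the 59453 genes of the count tables by gene name, with their measured counts scaled to library size (CPM) over the genotypes and H2O2 already known. The values of these 10 genes, and the counts of how many passed the study's criterion, are therefore given as a description and not as a test, and no p is printed for them.

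The cells were HAP1, a near-haploid adherent human line that descends from a chronic myeloid leukaemia line. Clones were wild type (WT), lacked the adenine glycosylase MUTYH (genotype label MUTYH-/), lacked the 8-oxoguanine glycosylase OGG1 (OGG1-/), or lacked both (MUTYH-/ X OGG1-/, called DKO), and each genotype was represented by 2 untreated clones. WT clones 2 and 11 were sequenced once more 24 h after exposure to 100 µM H2O2. The knockout (KO) clones were made with CRISPR/Cas9, and both DKO clones descend from the same 1 OGG1 KO clone. By its product number this parent is taken to be OGG1 KO clone 22 of these libraries. The 3 knockouts and the treated cells were all compared with the same 2 untreated WT libraries.

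KLFs are known as regulators of proliferation, quiescence and differentiation, and several are switched on within hours by serum, growth factors or stress. The tails outside the zinc fingers set their action. KLF3 recruits the corepressor CtBP, KLF9, KLF10, KLF11 and KLF13 recruit the SIN3A complex with its histone deacetylases, and KLF2, KLF4, KLF5, KLF6 and KLF7 carry activating regions. KLF4 is one of the reprogramming factors of pluripotency, and KLF10 and KLF11 were described as early genes of the TGF-beta response.

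The libraries held between 22225091 and 22674964 counts, so that 3 counts, taken as the detection floor, were worth 0.131 to 0.138 CPM. Intervals and floors of this kind cover counting error only. Mitochondrial genes took 2.995% and 3.38% of the counts in the treated clones 11 and 2 against 3.75% to 7.46% in the untreated libraries, and the part of this share in the results was not tested. The blood cell markers PTPRC, SPI1, GATA1, MPO and HBG1 had between 0 and 5 counts in every library, while VIM had 197 to 495 CPM and CDH2 80.7 to 223 CPM. KIT, at 1.99 to 18.3 CPM, made up most of the 9 blood markers, whose sum was 12.3 and 12.4 CPM in untreated WT, 8.83 to 18.9 CPM in MUTYH KO, 2.76 to 5.57 CPM in OGG1 KO, 5.02 to 10.1 CPM in DKO and 8.19 to 9.36 CPM in treated WT. The sum of the 7 markers of adherent cells was 386 to 653 CPM in WT, 559 to 810 CPM in MUTYH KO, 675 to 759 CPM in OGG1 KO, 586 to 683 CPM in DKO and 501 to 760 CPM in treated WT, with CDH1 at 0 to 2 counts. As a check of the labels, OGG1 was at 295 counts in WT clone 11 and 275 in clone 2, at 27 in OGG1 KO clone 1 but at 254 in clone 22, and in DKO clones 4 and 14 at 215 and 223. MUTYH had 101 and 83 counts in MUTYH KO clones 7 and 8 and 106 and 50 in the DKO clones, against 89 and 105 in WT. A small deletion need not lower the counts of a gene, so counts near those of WT neither bear out nor contradict a label. The study checked the knockouts at the protein level by targeted mass spectrometry and reports them verified for every clone. The counts of a targeted gene that lay farthest below those of WT were the 27 of OGG1 in OGG1 KO clone 1 and the 50 of MUTYH in DKO clone 14.

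To compare levels between genes, CPM were divided by the length of the merged exons of each gene. Over the 8 untreated libraries, KLF5, a factor of dividing epithelial cells, had the highest median level of the 10 genes with 16.4 CPM per kilobase (range 10.7 to 27.0). KLF6 followed with 7.67 (6.65 to 10.7), KLF13 with 6.55 (5.84 to 8.13), KLF7 with 5.37 (4.96 to 6.12), KLF3 with 5.001 (4.50 to 6.91) and KLF9 with 4.61 (3.37 to 6.99). The lower levels, again per kilobase, were those of KLF10 with 3.90 (2.70 to 4.69), KLF11 with 2.98 (2.61 to 4.11), KLF2 with 2.07 (1.47 to 2.90) and KLF4 with 1.19 (0.864 to 18.5). Only KLF5 and KLF6 were neighbours in this order whose library ranges did not overlap. With the longest transcript as the length, KLF7 and KLF3 exchanged ranks 4 and 5 and the other 8 ranks were kept.

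Among the 8 remaining KLF genes, KLF16 and KLF15 had levels within those of the chosen genes, with untreated medians of 13.6 and 6.85 CPM per kilobase, and KLF12 had 1.66. The erythroid factor KLF1 had 1 to 12 counts, KLF14 had 0 to 2 counts, and KLF17 and KLF18 had 0 counts in every library.

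**Figure D1:**
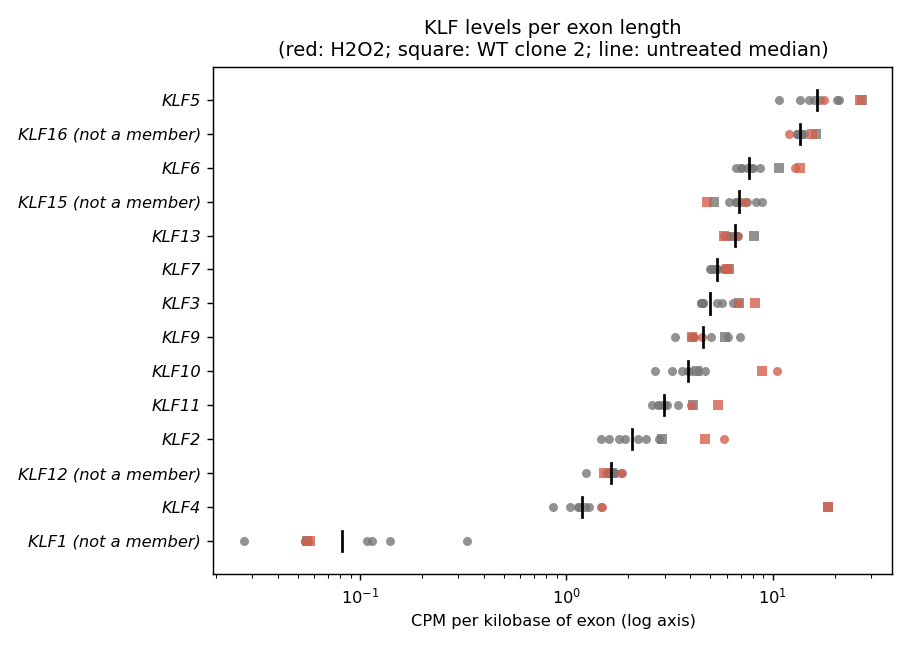
Level of each KLF gene with at least 1 count in every library, as CPM per kilobase of merged exons on a log axis. Points are the 10 libraries, red ones are treated with H2O2, squares are WT clone 2, and the line is the median of the 8 untreated libraries. KLF5 has the highest untreated median (16.4), and the squares of KLF4 stand near 18.5 while its other libraries lie below 2.

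On GRCh38 (GENCODE v44) the genes lie apart, with KLF2 on chromosome 19 (16324826 to 16328685), KLF3 on chromosome 4 (38664197 to 38701517), KLF4 on chromosome 9 (107484852 to 107490482) and KLF5 on chromosome 13 (73054976 to 73077541). KLF6 lies on chromosome 10 (3775996 to 3785281), KLF7 on chromosome 2 (207074137 to 207173856), KLF9 on chromosome 9 (70384604 to 70414657) and KLF10 on chromosome 8 (102648784 to 102655725). KLF11 lies on chromosome 2 (10042849 to 10054836) and KLF13 on chromosome 15 (31326835 to 31435665). KLF3, KLF4, KLF7 and KLF11 overlap genes annotated on the opposite strand. The strand setting of the counting is not given in the sources used here, so reads of such pairs cannot be told apart.

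WT cells were exposed to H2O2 to examine whether stress response genes picked out earlier in the study change under oxidative stress. In these libraries KLF10, KLF2 and KLF6 were higher in both treated clones than in both untreated ones. KLF10 had the largest difference of the 10, with a log2 fold change of 1.36 ± 0.21 (SE, n = 2 clones per group). KLF2 followed with 0.88 ± 0.22 and KLF6 with 0.51 ± 0.18. KLF13 was lower in both treated clones than in both untreated ones, with a log2 fold change of -0.25 ± 0.16.

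KLF10, a transcriptional repressor that TGF-beta induces, had 12.5 CPM in untreated WT clone 11 and 16.4 CPM in clone 2, and 40.2 and 34.1 CPM in the same clones after treatment. The treated level was 3.22-fold the untreated one in clone 11 and 2.09-fold in clone 2. The treated libraries also stood above the 6 knockout libraries, which ranged from 10.3 to 17.9 CPM.

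KLF2, known for holding endothelial cells and lymphocytes in quiescence, had 7.94 CPM (179 counts) in WT clone 11 and 8.18 CPM (183 counts) in clone 2. It had 16.4 CPM (374 counts) in treated clone 11 and 13.3 CPM (290 counts) in treated clone 2, which were 2.06-fold and 1.63-fold the untreated levels. Both untreated WT libraries lay close together and the treated ones stood apart from them.

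KLF6, a factor induced by tissue injury, had 48.1 and 65.7 CPM in untreated clones 11 and 2 and 78.9 and 83.1 CPM after treatment, 1.64-fold and 1.26-fold the untreated levels. The clones differed by 1.37-fold before treatment and 1.05-fold after it. KLF11, the paralog of KLF10, had 11.98 and 18.9 CPM in clones 11 and 2 before treatment and 18.6 and 24.9 CPM after it. KLF3 had 30.5 and 46.8 CPM before and 45.9 and 56.0 CPM after treatment. Both were higher with H2O2 within each clone, KLF11 by 1.55-fold and 1.32-fold and KLF3 by 1.51-fold and 1.20-fold, but treated clone 11 did not exceed untreated clone 2, so the groups overlapped.

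The remaining genes had treated levels near the untreated ones in at least 1 clone. KLF13, which had 62.8 and 76.6 CPM in clones 11 and 2 before treatment and 62.4 and 54.7 CPM after it, stood at 0.994-fold and 0.714-fold. KLF9, known as a glucocorticoid-induced gene, went from 21.4 to 23.6 CPM in clone 11 and from 30.5 to 21.2 CPM in clone 2, so the clones moved in opposite directions. KLF5 stood at 1.19-fold and 0.988-fold, KLF7, a factor of neuronal growth, at 1.05-fold and 0.986-fold, and KLF4 at 1.15-fold and 1.01-fold in clones 11 and 2.

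In all 10 genes the log2 ratio of treated to untreated was higher in clone 11 than in clone 2, with a median of 0.42 in clone 11 and 0.14 in clone 2. Over the 16997 genes tested, 50.9% had the higher ratio in clone 11, and the medians were 0.01 in each clone. Since the genes share the same 4 libraries, these 10 ratios are not independent observations. Each of the 10 genes was also higher in untreated clone 2 than in untreated clone 11, and these libraries are the denominators of the ratios. The higher ratios in clone 11 are thus not separate from that difference between the untreated clones.

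**Figure D2:**
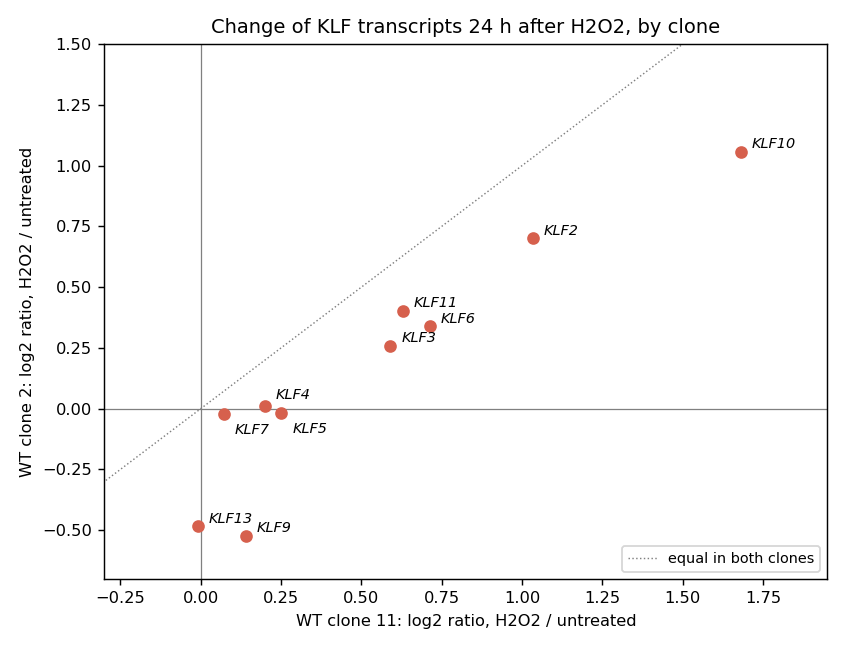
Log2 ratio of CPM in treated to untreated cells for the 10 KLF genes, in WT clone 11 (horizontal axis) and WT clone 2 (vertical axis). Every point is 1 gene and lies below the dotted line of equal ratios, and KLF10 and KLF2 are farthest from 0 in both clones (1.68 and 1.06 for KLF10, 1.03 and 0.70 for KLF2).

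Under the study's criterion, an unadjusted P of at most 0.05 with a log2 fold change beyond 1, KLF10 was the 1 of the 10 genes called after H2O2, against 1.75% of all genes tested. With clone as a block, which pairs each treated library with its own untreated clone, the log2 fold change was 1.37 ± 0.17 for KLF10 and 0.87 ± 0.19 for KLF2, and KLF10 was again the gene called, against 2.78% of all genes. Groups that did not overlap were found for 3 of the 10 genes in the higher direction, against 21.1% of all genes, and for 1 in the lower direction, against 20.0%. Since the genes were chosen with these values known, nothing is read from the counts. The median log2 fold change was 0.24 over the 10 genes and 0.00 over all genes tested. Without treated clone 2, KLF2 had a log2 fold change of 1.02, with a treated group of 1 library that is assumed to vary as the untreated one does.

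The stretches of DNA in front of KLF2, KLF6, KLF11 and KLF4 are shown because the first 3 were higher within each clone after H2O2, as were KLF10 and KLF3, and KLF4 had the widest range over the libraries. They are RefSeq sequences on GRCh38.p14, 5′ to 3′ on the strand of the gene, from a window of 250 bases before an annotated start and without any base annotated as exon. KLF2 is chr19:16324576-16324825 on the plus strand, KLF6 is chr10:3785282-3785459 on the minus strand, KLF11 is chr2:10043971-10044174 on the plus strand, before the later of its 2 starts, and KLF4 is chr9:107489770-107490019 on the minus strand. The KLF4 and KLF11 stretches precede RefSeq starts but lie within the GENCODE genes given above, which begin farther upstream. Capitals mark the GC box GGGCGGG on either strand, the cyclic AMP response element TGACGTCA in KLF11, and a MEF2 site in KLF2.
KLF2: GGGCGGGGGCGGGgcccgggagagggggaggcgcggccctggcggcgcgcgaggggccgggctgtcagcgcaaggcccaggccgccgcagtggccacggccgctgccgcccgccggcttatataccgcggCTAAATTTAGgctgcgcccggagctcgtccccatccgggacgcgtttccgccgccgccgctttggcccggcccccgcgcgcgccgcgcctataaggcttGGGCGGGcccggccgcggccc
KLF6: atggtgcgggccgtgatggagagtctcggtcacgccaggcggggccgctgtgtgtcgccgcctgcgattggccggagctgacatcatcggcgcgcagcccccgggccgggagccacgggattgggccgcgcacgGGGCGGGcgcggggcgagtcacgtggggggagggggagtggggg
KLF11: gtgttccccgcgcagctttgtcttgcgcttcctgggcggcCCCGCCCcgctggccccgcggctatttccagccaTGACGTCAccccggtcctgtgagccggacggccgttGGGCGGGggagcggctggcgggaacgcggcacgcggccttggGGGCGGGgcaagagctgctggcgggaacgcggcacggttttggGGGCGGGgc
KLF4: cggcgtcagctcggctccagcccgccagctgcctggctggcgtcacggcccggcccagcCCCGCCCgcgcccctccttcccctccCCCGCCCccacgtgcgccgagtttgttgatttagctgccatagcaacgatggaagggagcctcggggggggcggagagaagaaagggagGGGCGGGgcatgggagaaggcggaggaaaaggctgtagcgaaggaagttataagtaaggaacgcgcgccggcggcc

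Windows were found for 8 of the 10 genes, 13 in all, and not for KLF10 and KLF3, with 250 bases before the start searched on both strands. The windows of KLF2, KLF4 and KLF11 above were 80.0%, 69.2% and 74.4% G or C and that of KLF6 was 72.4%, against a median of 58.0% over 35116 windows. Windows not shown ran from 32.4% in KLF9, with 0 GC boxes, to 78.8% in KLF13, with 2, and in the earlier window of KLF11. KLF13 was not among the genes higher after H2O2, and KLF5 and KLF7 had windows on both sides of the median. The GC box, a site of SP and KLF proteins, was in 31.5% of all windows. It occurred 3 times in KLF2, 3 times in KLF4, 5 times in the window of KLF11 and 1 time in KLF6. Overlapping copies, as at the start of the KLF2 stretch, were each counted. Counts are for whole windows, of which the KLF11 and KLF6 stretches show the first 204 and 178 bases. The KLF11 stretch therefore marks fewer copies than its window holds. KLF2 had a MEF2 site 120 bases before its start, a kind of site found in 0.515% of windows. The cyclic AMP response element of the KLF11 window was found in 1.65% of windows. CCAAT was found 2 times in KLF6 and in 32.0% of windows, and neither TATAAA nor CACCC, in 10.7% and 54.7% of windows, was found in those of KLF2, KLF4 and KLF6, while KLF11 had 1 copy of CACCC. A match is a description of the letters only.

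In the knockouts, KLF4 was the gene of the 10 whose fitted value differed most from WT, and also the one whose value moved most when WT clone 2 was left out. KLF4 had 67.7 CPM (1514 counts) in untreated WT clone 2 and 4.75 CPM (107 counts) in WT clone 11. It had 5.38 and 4.17 CPM in MUTYH KO clones 7 and 8, 3.80 and 3.16 CPM in OGG1 KO clones 1 and 22, with 4.23 and 4.49 CPM in the DKO clones 4 and 14. WT clone 2 thus stood 14.3-fold above WT clone 11 and 16.0-fold above the median of the 7 other untreated libraries, which lay within 3.16 to 5.38 CPM.

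The high level of KLF4 was found again when the clones were sequenced after H2O2, with 68.2 CPM (1483 counts) in clone 2 and 5.47 CPM (125 counts) in clone 11, a 12.5-fold difference. The fitted log2 fold changes of KLF4 were -2.90 ± 0.99 in MUTYH KO, -3.36 ± 1.01 in OGG1 KO and -3.03 ± 0.99 in DKO (SE, n = 2 clones per group). Without WT clone 2 they were 0.01, -0.45 and -0.12. After H2O2 the value was 0.01 ± 1.38 in the unblocked fit and 0.07 ± 0.15 in the blocked one, but 2.94 without untreated clone 2 and -2.73 without treated clone 2, since the clones are then no longer balanced.

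Of the 17881 genes tested in untreated cells, 7 had a level in WT clone 2 over 10 times that of the next highest untreated library, and WT clone 2 was the highest library for 2606. It was also the highest for KLF2, KLF3, KLF4, KLF5, KLF6, KLF7, KLF11 and KLF13, but not for KLF9 and KLF10. Each of the 10 KLF genes was higher in untreated WT clone 2 than in WT clone 11, from 1.03-fold for KLF2 to 14.3-fold for KLF4. Over 15331 genes the median log2 difference was 0.01. The part of this in the fold changes against WT was not tested. The 2 neighbours of KLF4 within 1000000 bases that had at least 10 counts on average, chosen after their values were seen, did not share its level. ZNF462 had 843 counts in untreated WT clone 2, against a median of 1125.5 in the 8 libraries of other clones, and RAD23B had 9471 counts against 7538.5, ratios of 0.754 and 1.27.

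KLF2 was lower in every knockout library than in either WT clone, by a similar amount against each. It had 4.55 and 6.88 CPM in MUTYH KO clones 7 and 8, 5.43 and 4.14 CPM in OGG1 KO clones 1 and 22, and 6.26 and 5.10 CPM in DKO clones 4 and 14. All 6 knockout libraries were below both WT libraries, which was the case for 1 of the 10 genes and 1.76% of all genes, and 0 of the 10 had all 6 above, against 1.89%. The log2 fold changes were -0.48 ± 0.30, -0.75 ± 0.30 and -0.49 ± 0.30 (SE) in MUTYH KO, OGG1 KO and DKO. Without WT clone 2 they were -0.47, -0.74 and -0.48, and without WT clone 11 they were -0.49, -0.76 and -0.51.

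KLF5 was lowest in OGG1 KO, with 39.4 and 50.1 CPM in clones 1 and 22, against 55.1 and 99.4 CPM in WT clones 11 and 2. MUTYH KO had 58.2 and 75.7 CPM and DKO, which lacks both glycosylases, had 62.4 and 77.6 CPM, within the WT range. The log2 fold change in OGG1 KO was -0.78 ± 0.29 (SE), and it was -0.31 without WT clone 2 and -1.14 without WT clone 11. In MUTYH KO and DKO it was -0.19 ± 0.29 and -0.13 ± 0.29, and 0.28 and 0.35 without WT clone 2, so the direction depended on that library.

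KLF6 had 49.6 and 53.6 CPM in MUTYH KO, 43.3 and 46.0 CPM in OGG1 KO and 40.8 and 43.0 CPM in DKO, the last 2 groups below both WT libraries. Its log2 fold changes were -0.13 ± 0.17, -0.34 ± 0.17 and -0.43 ± 0.17 (SE), and 0.10, -0.11 and -0.20 without WT clone 2. KLF13, a factor of lymphocytes and heart, had 63.3 and 63.9 CPM in MUTYH KO, 60.8 and 58.3 CPM in OGG1 KO and 55.1 and 58.2 CPM in DKO, with OGG1 KO and DKO again below both WT libraries. Its log2 fold changes were -0.12 ± 0.14, -0.22 ± 0.14 and -0.29 ± 0.14, and 0.02, -0.08 and -0.15 without WT clone 2.

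KLF7 had the narrowest range of the 10 genes, with 47.7 to 58.9 CPM over all libraries. It had 51.1 and 48.1 CPM in MUTYH KO and 47.7 and 52.2 CPM in DKO, below the 55.8 and 58.9 CPM of WT, and 57.4 and 49.3 CPM in OGG1 KO. KLF10 had 13.9 and 15.0 CPM in MUTYH KO, 10.3 and 14.8 CPM in OGG1 KO and 17.9 and 16.7 CPM in DKO, both DKO libraries above the 12.5 and 16.4 CPM of WT. Its log2 fold change in DKO was 0.28 ± 0.23, and 0.47 and 0.10 without WT clones 2 and 11. KLF11 had 12.8 to 16.0 CPM in the 6 knockout libraries, within the 11.98 and 18.9 CPM of WT.

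**Figure D3:**
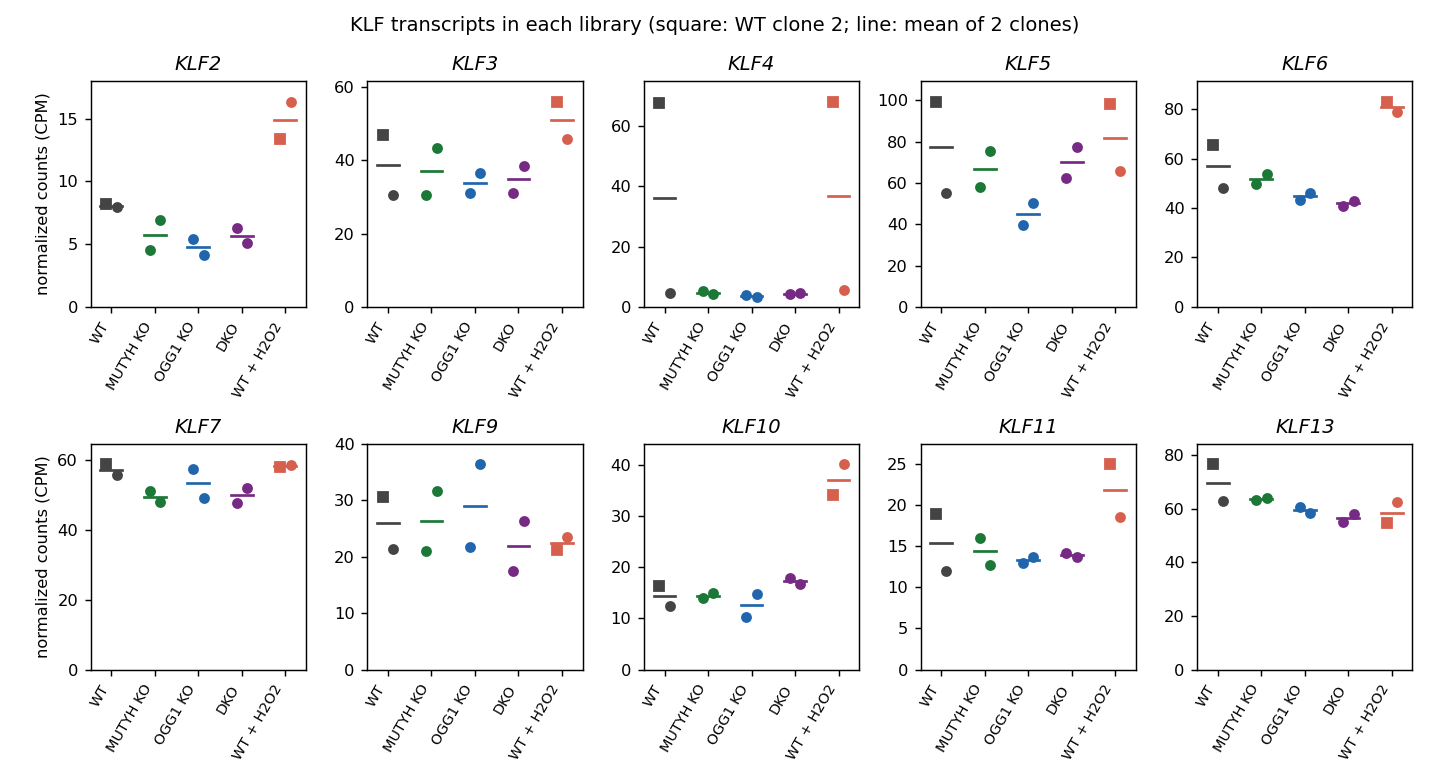
CPM of the 10 KLF genes in each of the 10 libraries, with a linear axis from 0 for each gene. Points are libraries, squares are WT clone 2, and lines are means of 2 clones. KLF4 is high in WT clone 2 alone (67.7 and 68.2 CPM), and both treated libraries of KLF10 and KLF2 stand above the untreated ones.

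By the study's criterion KLF4 was the 1 gene of the 10 called in each knockout, against 1.19% of all genes in MUTYH KO, 1.67% in OGG1 KO and 1.77% in DKO, and without WT clone 2 the number was 0 in each. Without WT clone 11, the log2 fold change of KLF5 in OGG1 KO lay farther below 0 than in the fit of all libraries, with the lone WT library assumed to vary as the other groups do. Libraries that did not overlap with WT were found in the lower direction for 2 of the 10 genes in MUTYH KO (KLF2 and KLF7), for 5 in OGG1 KO (KLF2, KLF4, KLF5, KLF6 and KLF13) and for 5 in DKO (KLF2, KLF4, KLF6, KLF7 and KLF13). The shares of all genes were 11.3%, 12.5% and 13.3%. In the higher direction there were 0, 0 and 1 (KLF10 in DKO), against 10.1%, 12.6% and 12.7%. The median log2 fold changes of the 10 genes were -0.12, -0.21 and -0.21, with 0.01, 0.01 and 0.00 over all genes tested. The 3 comparisons share the WT libraries, and the DKO clones descend from an OGG1 KO clone. They are thus not independent of each other, and nothing is read from the counts.

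**Figure D4:**
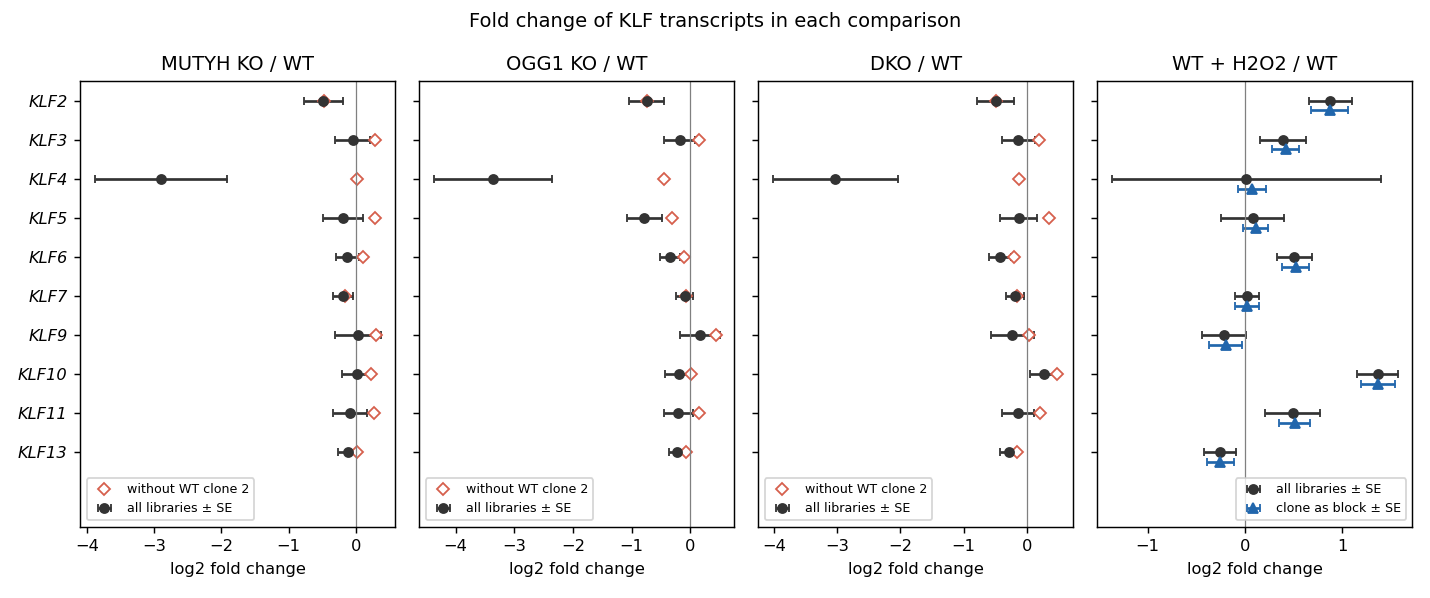
Log2 fold change of the 10 KLF genes in each comparison. Filled circles with bars are the fit of all libraries with its SE, open diamonds leave out WT clone 2, and blue triangles are the fit with clone as a block. The KLF4 circles lie at -2.90, -3.36 and -3.03 in the knockouts and the diamonds near 0, while those of KLF2 coincide.

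The untreated libraries also differed along a line that crossed the genotypes. The first principal component after centring each genotype held 49.9% of the variance and put WT clone 2, MUTYH KO clone 8, OGG1 KO clone 22 and DKO clone 14 on one side (set A) and WT clone 11, MUTYH KO clone 7, OGG1 KO clone 1 and DKO clone 4 on the other (set B). The labels name no batch that matches it. The mitochondrial share was 3.75% to 5.02% in set A and 5.14% to 7.46% in set B. Of the 7 markers of adherent cells, CDH2, with 80.7 to 112 CPM in set A and 157 to 223 CPM in set B, and FN1, with 58.2 to 71.4 CPM and 84.1 to 132 CPM, were lower in set A without overlap, and the sum of all 7 was 386 to 675 CPM in set A and 653 to 810 CPM in set B. The 9 blood markers summed to 5.02 to 18.9 CPM in set A and 2.76 to 12.4 CPM in set B, and 0 of them were without overlap. The part of these differences in the values of the KLF genes was not tested. KLF3 had 36.5 to 46.8 CPM in set A and 30.5 to 31.2 CPM in set B, and KLF9 had 26.3 to 36.4 CPM in set A and 17.5 to 21.7 CPM in set B, so that neither overlapped. KLF5 and KLF6 were higher in the set A clone of all 4 genotypes, with overlapping ranges. Sets that did not overlap were seen for 2 of the 10 genes in the higher direction and 0 in the lower, against 15.1% and 14.1% of all genes, for sets that were themselves drawn from these data. In the 3 knockouts KLF3 had log2 fold changes of -0.05 ± 0.26, -0.19 ± 0.26 and -0.13 ± 0.26 (SE) without a block. KLF9 had 0.03 ± 0.34, 0.16 ± 0.34 and -0.23 ± 0.34. All were smaller than their SE, but these SE include the difference between the sets. With the library sets as a block, the values in DKO were -0.12 ± 0.13 for KLF3 and -0.24 ± 0.12 for KLF9, the latter larger than its SE.

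The 17 other genes of the family, 8 KLFs and 9 SP factors, which bind the same GC boxes, were counted for the same comparisons. Of these, 11 passed the filter on low counts in untreated cells and 9 in WT with and without H2O2. By the study's criterion 0 were called in each of the 4 comparisons with edgeR, and 0 were called with DESeq2. With edgeR 0 also reached an unadjusted P of 0.05 or less. The shares of all genes called with edgeR were 1.19%, 1.67% and 1.77% in MUTYH KO, OGG1 KO and DKO and 1.75% after H2O2. For so few genes a count of 0 lies near these shares, and nothing is read from it. Their median log2 fold changes were 0.05, -0.15 and -0.11 in MUTYH KO, OGG1 KO and DKO and 0.00 after H2O2. KLF16, which had the highest level per kilobase of these 8 KLFs, had log2 fold changes of -0.05 ± 0.15, -0.15 ± 0.15 and -0.11 ± 0.15 in the knockouts and -0.10 ± 0.19 after H2O2 (SE). KLF8, named after its values were seen, had 34 and 32 counts in untreated and treated WT clone 2, 5 in each library of WT clone 11 and 0 to 3 in the knockouts, and did not pass the filter in untreated cells.

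A list of 41 genes that regulate KLF genes, degrade KLF proteins, serve as their cofactors or are known KLF targets was examined in the same way, of which 39 passed the filter. In MUTYH KO 0 were called with edgeR, against 1.19% of all genes. In the same comparison 0 reached an unadjusted P of 0.05 or less, and 0 were called with DESeq2. In OGG1 KO and DKO 1 of the 39 was called, against 1.67% and 1.77% of all genes. These counts lie near the shares of all genes, and nothing is read from them. The gene was FBXO32, a ubiquitin ligase subunit known from muscle atrophy that targets KLF4 for degradation. It was counted 13 and 9 times in the WT libraries (clones 11 and 2), 22 and 45 times in OGG1 KO (clones 1 and 22) and 42 and 55 times in DKO (clones 4 and 14). The log2 fold change of FBXO32 was 1.60 ± 0.50 in OGG1 KO and 2.13 ± 0.49 in DKO (SE, edgeR adjusted p of 0.999 and 1.00). The call in OGG1 KO was lost without WT clone 2 (1.36) and without OGG1 KO clone 22 (1.03).

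After H2O2, 2 of the 39 list genes were called, 1 higher and 1 lower, against 1.75% of all genes. CDKN1A, the p21 inhibitor of cyclin-dependent kinases and a target of KLF4 and KLF6 as well as p53, had 89 and 177 counts in untreated WT clones 11 and 2 and 430 and 4283 after treatment. It rose by a log2 value of 3.66 ± 0.38 with clone as a block (SE, edgeR adjusted p = 0.000503), and the value was 4.17 ± 1.11 without the block (edgeR adjusted p = 0.638). CDKN1A was 4.76-fold higher in treated clone 11 and 24.9-fold higher in treated clone 2, whereas KLF10, KLF2 and KLF6 had the larger ratio in clone 11. The blocked fit leaves 1 degree of freedom, so its SE and p rest largely on variance pooled over genes. They do not measure how far the response differed between clones, which for CDKN1A was 2.23 in clone 11 and 4.62 in clone 2 (log2). MEF2C, one of the MEF2 factors that act on KLF2 and KLF4 downstream of the kinase MAPK7, rose in the blocked fit by 0.99 ± 0.14 (SE, edgeR adjusted p = 0.00465, and 0.638 without the block). It had 786 and 519 counts in untreated clones 11 and 2 and 1364 and 1176 in the treated ones. ENG, an accessory TGF-beta receptor and KLF6 target, was named after its values were seen, since it stayed under 1 CPM, and its log2 fold change of -1.50 in the blocked fit did not keep its call when any 1 of the 4 libraries was left out. The medians of the list were 0.05, 0.01, 0.07 and 0.00 in MUTYH KO, OGG1 KO, DKO and after H2O2.

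For the 3 genes with the widest range of log2 CPM, the genes with the most similar pattern over the 10 libraries were looked up among 14865 genes. The Pearson r describes these 10 libraries, which share clones, and carries no p. KLF4 was most like UBAP2L (r = 0.985), UBQLN4 (0.969) and FLAD1 (0.968), all highest in treated WT clone 2. Their ranges of 321 to 861 CPM, 95.2 to 133 CPM and 60.2 to 93.4 CPM were far narrower in fold than the 3.16 to 68.2 CPM of KLF4. UBAP2L, UBQLN4 and FLAD1 lie together on the long arm of chromosome 1, from 154220179 to 156053798, and not near KLF4. Over the 56 tested genes of that stretch the median log2 difference of WT clone 2 from clone 11 was 0.25 in untreated and 0.34 in treated cells, against 0.01 and 0.02 over 15331 genes with a position and -0.03 and 0.01 over 628 genes of chromosome 9, which carries KLF4. The stretch was drawn after these 3 genes were seen and includes them. Its medians therefore describe the same libraries and are no separate evidence. KLF2 was most like UHRF1BP1 (r = 0.973), AP4E1 (0.955) and ZNF419 (0.946), which ranged over 95.1 to 133 CPM, 27.5 to 39.6 CPM and 10.4 to 14.8 CPM. KLF10 was most like PCNX2 (r = 0.980), with 6.88 to 15.7 CPM, EIF6 (0.970), with 63.6 to 91.7 CPM, and GET3 (0.969), with 56.2 to 72.6 CPM, and all of these were highest in a treated library.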

How the data were processed

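RNA-seq was done on 8 untreated and 2 H2O2-treated HAP1 libraries. The authors deposited raw read counts per gene, made by aligning reads with HISAT2 2.2.1 and counting them over genes with featureCounts on GRCh38. The handling of strand and of reads with several alignments is not given in the sources used here. The 2 untreated WT columns occur in both tables and were identical, so they were used once.

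Counts were tested over all genes in R 4.3.3 with edgeR 4.0.16 (TMM factors, filterByExpr by group, quasi-likelihood F test with legacy=TRUE, two-sided, Benjamini-Hochberg adjustment). The 8 untreated libraries were fitted together (17881 genes tested), and the 4 WT libraries were fitted for H2O2 (16997 genes). The study's criterion for calling a gene was used, an unadjusted edgeR P no higher than 0.05 and a change of more than 1 on the log2 scale. CPM used TMM factors over 10 libraries (0.970 to 1.02), and log2 CPM a prior count of 2. SE were derived from the F statistic. With 2 clones per group, p values of the fits without a block set the difference against a spread between clones. That spread is pooled over all groups of the fit and moderated over genes. In untreated cells it includes the difference between the library sets. The clones are not all independent, since both DKO clones share 1 parent and the same WT clones were treated and untreated. WT clone numbers pair treated with untreated libraries, being the same clones, and the clone differences correlated across genes (r = 0.681), so clone was also used as a block. That fit leaves 1 degree of freedom, and its SE and p rest largely on variance pooled over genes. DESeq2 1.42.0 and other settings were tried as alternatives, and the fits were tested on simulated data. Lengths came from GENCODE v44, a release other than that used for counting.

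The 10 KLF genes, the lists and the tests were chosen with earlier results of these data known. Named beside the 10 were list genes past the criterion with at least 1 CPM in either group or with an adjusted p of at most 0.05 in the blocked fit, the 3 genes most similar in pattern to each of 3 KLF genes, and OGG1 and MUTYH.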

Additional observations from a re-analysis of the deposited data

How the results depend on the processing

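Of 132 alternative values for the counts of called genes, 93 stayed within 1.5 times the value reported, and of 501 for single genes 487 kept their direction and their side of the threshold or moved less than the spread between clones. With clone as a block (replicate block) the number of KLF genes called after H2O2 was 1 and that of the regulator, cofactor and target list 2, as without it. With a replicate left out, the number of the 10 KLF genes called ranged from 0 to 1 in MUTYH KO, from 0 to 2 in OGG1 KO, from 0 to 1 in DKO and from 1 to 2 after H2O2. That of other family genes ranged from 0 to 1, 0 to 2, 0 to 1 and 0 to 0, and that of the list from 0 to 1, 0 to 3, 1 to 3 and 1 to 3. KLF8 was the family gene called without WT clone 11, without either clone of OGG1 KO and without either clone of DKO, joined by KLF1 without OGG1 KO clone 1. Without WT clone 11 the list genes called were NOS3 in MUTYH KO and NOS3, FBXO32 and PLAU in OGG1 KO and in DKO. The KLF4 call of each knockout was also lost where a knockout clone was left out, in MUTYH KO and DKO with either clone and in OGG1 KO with clone 22, and KLF4 in MUTYH KO changed sign without WT clone 2 (0.012), the upper end of a range whose lower end was -3.80 without WT clone 11. Without a filter on low counts 1 other family gene was called in each of MUTYH KO, OGG1 KO and DKO, and this was KLF8. With only the 4 libraries of the comparison 1 was called in OGG1 KO and 1 in DKO, and with the library sets as a block 1 in MUTYH KO. Of the list, a minimum of 10 counts in every library left 0 called in OGG1 KO, 0 in DKO and 1 after H2O2, the library sets as a block gave 2 in DKO, and DESeq2 gave 1 after H2O2. The causes were not tested. Fits with a replicate left out rest on 1 library in a group. The shares of all genes called in them are not given, so nothing is read from their counts. Genes under about 3 counts in every library cannot be measured at this depth.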
